A study of Rattus norvegicus with 42 samples.

Results

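The conjugating enzymes attach glucuronic acid (UDP-glucuronosyltransferases, Ugt), sulfate (sulfotransferases, Sult) or glutathione (glutathione S-transferases, Gst and Mgst) to drugs, hormones and reactive products of metabolism. They were taken here as the probe sets whose platform annotation names a single gene of these families, which gave 50 of 31042 tested probe sets and 46 of 14217 genes. Messenger RNA was measured on Affymetrix rat arrays in liver, brain and lung of 1 untreated rat (9 to 12 weeks old per the labels, with strain and sex not given in the sources used here), and in 11 mixtures of the labelled RNA (cRNA) of these tissues. Each of the 14 groups had 3 technical replicate arrays, 42 in all. The groups were pure liver, pure brain, pure lung and the mixtures 5/25/70, 25/70/5, 45/45/10, 50/30/20, 50/40/10, 55/20/25, 55/30/15, 60/35/5, 65/34/1, 70/5/25 and 70/25/5, named by percent liver, then brain, then lung. All replicates were arrays of the same animal's RNA, so p-values cover the spread of arrays alone and say nothing about other animals.

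Conjugation makes fat-soluble compounds more soluble in water, so that they can leave through bile or urine. The Ugt enzymes sit in the endoplasmic reticulum and use UDP-glucuronic acid, the Sult enzymes lie in the cytosol and use the sulfate donor PAPS, and most Gst enzymes are cytosolic and use glutathione, while the Mgst enzymes are membrane proteins of a separate family. The liver is the best known site of all of them, and lung and brain hold their own sets, such as the pi class of Gst, or Ugt8, which makes the galactolipids of myelin.

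Promoters are shown first for the pi, mu and Sult2a members, because related genes differed in the values that follow. The pi and mu genes differed in tissue pattern, and the Sult2a genes in level. The sequences come from RefSeq (assembly GRCr8), run 5′ to 3′ on the gene's strand from 250 bases before to 50 bases after the annotated start, and matched 40 of the 46 genes. For 3 genes with several annotated starts the first listed was used. Capitals mark the letters of 3 motifs: TGACNNNGC, the core of the antioxidant response element bound by Nrf2 and related factors, GTTAAT, a site for the liver factor HNF1, and TATAAA, the TATA box. TGACNNNGC and GTTAAT were searched on both strands and TATAAA on the gene's strand. No letters of different motifs overlapped in the promoters printed. Gstp1 lies at chr1:210769656-210769955 (minus strand) and its neighbour Gstp3 at chr1:210787635-210787934 (minus strand), with 0 protein-coding genes between them.
Gstp1: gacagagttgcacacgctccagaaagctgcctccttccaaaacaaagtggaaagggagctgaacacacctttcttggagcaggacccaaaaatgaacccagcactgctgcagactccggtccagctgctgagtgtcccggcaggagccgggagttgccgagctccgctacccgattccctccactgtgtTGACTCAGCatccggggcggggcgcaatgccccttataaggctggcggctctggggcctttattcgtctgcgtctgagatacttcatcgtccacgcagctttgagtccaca
Gstp3: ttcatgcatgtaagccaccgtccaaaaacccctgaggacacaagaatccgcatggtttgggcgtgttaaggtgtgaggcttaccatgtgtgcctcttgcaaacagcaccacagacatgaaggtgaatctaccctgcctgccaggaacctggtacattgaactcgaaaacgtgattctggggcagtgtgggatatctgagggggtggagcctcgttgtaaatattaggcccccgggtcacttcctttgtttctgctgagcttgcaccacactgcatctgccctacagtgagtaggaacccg
Gstm5 lies at chr2:198219519-198219818 (plus strand) and Gstm1, of the same cluster, at chr2:198343334-198343633 (minus strand).
Gstm5: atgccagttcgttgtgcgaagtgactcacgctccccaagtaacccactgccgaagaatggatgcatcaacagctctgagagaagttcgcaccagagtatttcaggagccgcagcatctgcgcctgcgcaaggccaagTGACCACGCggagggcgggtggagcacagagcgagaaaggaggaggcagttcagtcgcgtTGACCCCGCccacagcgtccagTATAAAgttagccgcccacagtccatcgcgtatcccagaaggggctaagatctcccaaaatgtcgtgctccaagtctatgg
Gstm1: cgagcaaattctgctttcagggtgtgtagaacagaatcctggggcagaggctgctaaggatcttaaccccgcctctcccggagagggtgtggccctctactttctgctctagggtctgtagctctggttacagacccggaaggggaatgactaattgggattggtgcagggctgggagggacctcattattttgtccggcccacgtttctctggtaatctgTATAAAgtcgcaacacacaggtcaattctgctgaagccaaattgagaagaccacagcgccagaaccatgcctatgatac
Sult2a6 lies at chr1:84097759-84098058, Sult2a2 at chr1:85104483-85104782 and Sult2a1 at chr1:84638898-84639197, all on the minus strand.
Sult2a6: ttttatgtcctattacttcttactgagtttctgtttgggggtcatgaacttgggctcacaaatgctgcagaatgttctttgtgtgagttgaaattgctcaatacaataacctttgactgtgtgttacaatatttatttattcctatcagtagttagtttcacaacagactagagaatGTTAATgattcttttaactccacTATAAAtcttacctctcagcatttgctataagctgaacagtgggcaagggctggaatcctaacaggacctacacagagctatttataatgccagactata
Sult2a2: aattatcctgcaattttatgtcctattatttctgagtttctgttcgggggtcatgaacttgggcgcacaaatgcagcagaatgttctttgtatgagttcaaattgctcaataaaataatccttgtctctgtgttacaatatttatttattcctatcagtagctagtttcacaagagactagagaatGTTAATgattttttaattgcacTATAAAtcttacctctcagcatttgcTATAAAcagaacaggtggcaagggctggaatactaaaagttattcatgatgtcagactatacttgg
Sult2a1: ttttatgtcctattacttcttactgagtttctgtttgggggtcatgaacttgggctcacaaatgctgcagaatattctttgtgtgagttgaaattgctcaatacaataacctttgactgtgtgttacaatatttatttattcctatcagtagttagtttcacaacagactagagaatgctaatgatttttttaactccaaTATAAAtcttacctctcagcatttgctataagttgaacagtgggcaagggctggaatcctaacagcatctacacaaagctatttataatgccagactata
TGACNNNGC was found in 6 of 40 member promoters (15%), against 12.1% of 33469 promoters, namely those of Gsta1, Gsta3, Gstm5, Gstm7, Gstp1 and Gstz1. GTTAAT was found in 5 member promoters (12.5%, against 7.45%), those of Gsta1, Gsta3, Sult2a2, Sult2a6 and Ugt2b10. TATAAA was found in 7 (17.5%, against 8.8%). The palindrome TTGCNNCAA of C/EBP factors, searched on both strands, was found in 0 (0%, against 2.17%). A match is a description of the letters in these windows and not a measured site.

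Most marker genes followed the labels of the tissues. All 10 hepatocyte markers were enriched in liver, all 5 neuron and all 3 measured oligodendrocyte markers in brain, and all 4 alveolar type 2 and 2 of 4 measured airway markers in lung. Of the 4 astrocyte markers 3 were enriched in brain, and of the 4 choroid plexus markers 2. Slc1a2 and Ttr, of these lists, were highest in liver, and the dim Kl in lung. Hepatocyte markers were also present in the brain sample: their summed linear level was 93654 to 97420 per array in liver, 5413 to 5540 in brain and 255 to 276 in lung. Alb was by far the brightest of them in brain, at 12.21 (log2). Levels are log2 values after RMA, the authors' normalization, between 2.12 and 14.43, and the bacterial dap controls, absent from rat, read 2.43 to 3.09 in the pure tissues. Levels near 3 thus lie at the floor, and folds against them are approximate. In bulk tissue, fewer cells of a type and less RNA per cell cannot be told apart.

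Liver was the main site of these enzymes. Of the 46 genes, 26 were enriched in liver, against 9.61% of all genes; enriched means called higher than both other tissues at 2-fold or more with a limma adjusted p under 0.05. Brain had 4 (Ugt8, Sult4a1, Gstm5 and Sult1d1, against 11.7% of all genes). Lung had 0, against 11.5% of all genes, and without the fold limit it had 2, Gstp1 and Gsta3l1, a count that was also 2 at an unadjusted p under 0.05. The remaining 16 were enriched in no tissue. The tissue with the highest mean was liver for 38 genes, brain for 5 and lung for 3. Other scalings of the arrays gave 23 to 30 liver genes, 4 brain genes and 0 lung genes.

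**Figure D1:**
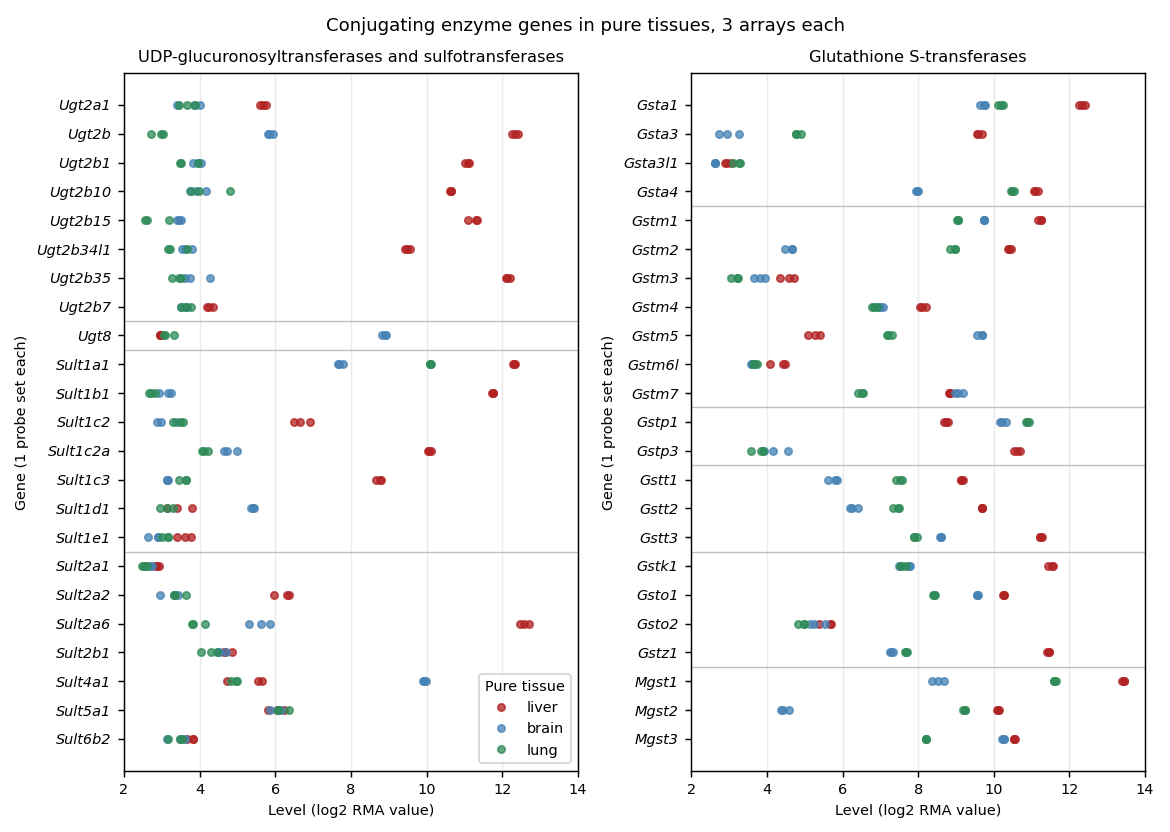
Level (log2 RMA value, horizontal axis) of the 46 genes in pure liver, brain and lung, with 1 point per array and lines between classes. The liver arrays lie to the right of both others for 38 genes by their mean, with Ugt8, Sult4a1, Gstm5 and Sult1d1 the genes enriched in brain. Levels of different genes come from different probes and are not comparable with each other.

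By probe set, 31 of 50 were higher in liver than in brain and 5 were lower, against 14.6% and 18.9% of all probe sets. The 5 lower were Ugt8, Sult1d1, Sult4a1, Gstm5 and Gstp1. Against lung, 33 were higher in liver and 2 lower (Gstm5 and Gstp1), where all probe sets gave 10.8% and 17.2%. Brain and lung differed in fewer members: 9 were higher in brain and 8 lower, against 15% and 15.9% of all probe sets. The median difference over the 50 was 2.64 (log2) for liver minus brain, 1.98 for liver minus lung and 0.11 for brain minus lung, and 0.18, 0.12 and -0.03 over all probe sets.

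**Figure D2:**
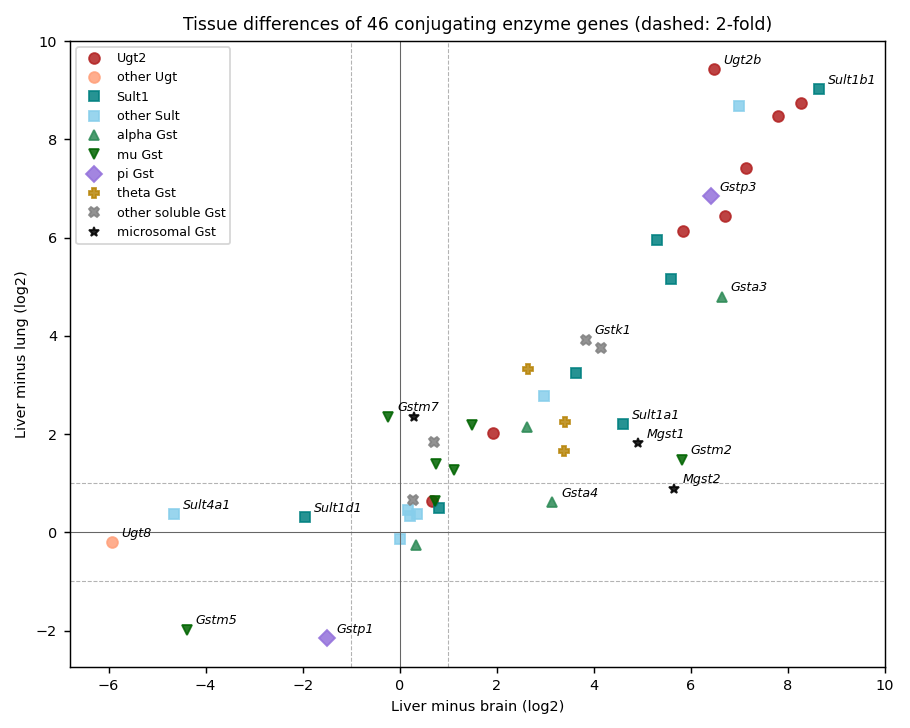
Difference of liver minus brain (horizontal) and of liver minus lung (vertical), both log2, for the 46 genes, marked by class, with dashed lines at 2-fold. The 26 genes enriched in liver fill the upper right, Gstm5 and Gstp1 are below the lower line, and Mgst2 and Gsta4 lie far to the right while under the 2-fold line of liver minus lung.

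The Ugt2 genes, which glucuronidate steroids, bile acids and drugs, lay far higher in liver than in the other tissues: 7 of 8 were enriched in liver, and the class medians were 6.58 (log2) for liver minus brain and 6.94 for liver minus lung. Ugt2b35 read 12.20, 12.09 and 12.13 (log2) on the liver arrays, 3.75, 3.60 and 4.26 on the brain arrays and 3.26, 3.44 and 3.51 on the lung arrays. Liver was 309-fold above brain, the next tissue (8.27 ± 0.09, log2, SE; limma adjusted p = 5.79e-39). No array of brain or lung came near the liver range. Ugt2b15, whose human counterpart glucuronidates androgens, read 11.34, 11.10 and 11.32 in liver, 3.45, 3.52 and 3.40 in brain and 2.54, 3.18 and 2.61 in lung. Ugt2b1 read 11.11, 11.02 and 11.09 in liver, 4.03, 3.82 and 3.95 in brain and 3.49, 3.51 and 3.95 in lung. Their liver levels were 222-fold and 141-fold above brain (limma adjusted p = 1.45e-32 and 7.44e-40). In both genes the liver arrays stood apart, while Ugt2b1 had a lung array at the brain level. Ugt2b10 and Ugt2b34l1 followed, at 10.63 ± 0.02 and 9.49 ± 0.06 in liver (SD, n = 3), 3.94 ± 0.21 and 3.64 ± 0.13 in brain, and 4.19 ± 0.55 and 3.35 ± 0.28 in lung.

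Ugt2b, a member of the same steroid and drug group, had a level in brain that the other Ugt2 genes lacked. It read 12.42, 12.25 and 12.34 in liver, 5.84, 5.81 and 5.94 in brain and 2.97, 2.71 and 3.04 in lung, so the 3 tissues did not overlap. Brain was 7.76-fold above lung (limma adjusted p = 6.64e-27). A second Ugt2b probe set read 10.20 in liver but 3.08 in brain and 2.97 in lung, with no call between brain and lung (adjusted p = 0.319), so the level in brain rests on 1 of the 2. The summed level of the hepatocyte markers given above was likewise higher in the brain sample than in lung. Each marker was higher in brain except Serpina1 (6.72 in brain and 6.96 in lung) and Tat (3.47 and 3.60). The part of hepatocyte RNA in this result was not tested. Ugt2a1, known as the Ugt of the olfactory lining, was dim (5.68 ± 0.08 in liver, against 3.76 ± 0.31 in brain and 3.66 ± 0.21 in lung, SD, n = 3) and 3.79-fold above brain. Ugt2b7, at 4.27 ± 0.08 in liver, against 3.60 ± 0.09 in brain and 3.64 ± 0.13 in lung, passed the test against both tissues but not the 2-fold limit. Its liver minus lung difference turned with the scaling, to 1.13 (log2) with each array's 5th percentile subtracted and to -0.28 with the array levels aligned on bacterial hybridisation controls.

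Ugt8, the ceramide galactosyltransferase of myelin-forming cells, was the only member of its class and had the opposite pattern. It read 2.95, 2.94 and 2.99 in liver, 8.83, 8.91 and 8.91 in brain and 3.06, 3.32 and 3.09 in lung. Liver and lung were at the floor. Liver minus brain was -5.93 ± 0.07 (log2, SE), so brain was 60.9-fold above liver (limma adjusted p = 2.77e-38), and 53-fold above lung (1.77e-37). A second Ugt8 probe set lay at the floor in all tissues, with means of 2.84 in liver, against 2.62 in brain and 2.61 in lung. All 3 measured oligodendrocyte markers, Mbp, Mobp and Mog, were enriched in brain too, and how far their cells account for Ugt8 was not tested.

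The Sult1 genes sulfate phenols, thyroid hormone, catecholamines and estrogens. Of 7, 5 were enriched in liver, 1 in brain and 1 nowhere. Sult1b1, which acts on thyroid hormone and phenols, read 11.75, 11.74 and 11.74 in liver, 2.92, 3.23 and 3.16 in brain and 2.71, 2.82 and 2.65 in lung. Brain and lung were at or near the floor, so the fold of liver over brain, 398 (8.64 ± 0.06, log2, SE; limma adjusted p = 3.91e-44), is approximate and gives no rank. Sult1a1, the main phenol sulfotransferase, was at 12.31 ± 0.03 in liver, against 7.71 ± 0.07 in brain and 10.11 ± 0.01 in lung (SD, n = 3). Its level in lung was 5.27-fold above that in brain (adjusted p = 7.56e-33), and each of the 3 tissues had its own range.

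The 3 Sult1c genes shared a liver level far from both others. Sult1c2a was at 10.08 ± 0.04 in liver, against 4.78 ± 0.18 in brain and 4.13 ± 0.08 in lung, Sult1c3 at 8.74 ± 0.07, 3.15 ± 0.02 and 3.58 ± 0.10, and Sult1c2 at 6.69 ± 0.21, 3.07 ± 0.27 and 3.45 ± 0.14 (SD, n = 3 each). The liver levels were 39.4-fold, 35.8-fold and 9.46-fold above the next tissue. Sult1d1, which sulfates catecholamines such as dopamine in mice, went the other way. It read 3.79, 3.40 and 3.14 in liver, 5.35, 5.43 and 5.41 in brain and 3.14, 2.96 and 3.30 in lung. Brain was 3.87-fold above liver (liver minus brain -1.95 ± 0.15, log2, SE; limma adjusted p = 8.16e-14) and 4.79-fold above lung, at a level under the median of all values (5.73). Sult1d1 and Sult1b1 are neighbours on chromosome 14 with 0 protein-coding genes between them, and on the far side of Sult1d1 lies Sult1e1, the estrogen sulfotransferase. Sult1e1 was dim in all tissues, at 3.61 ± 0.19 in liver, against 2.81 ± 0.16 in brain and 3.10 ± 0.09 in lung.

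Of the 7 other sulfotransferases 2 were enriched in liver, 1 in brain and 4 nowhere. Sult2a6, of the group that sulfates hydroxysteroids and bile acids, read 12.72, 12.47 and 12.58 in liver, 5.31, 5.61 and 5.87 in brain and 4.13, 3.82 and 3.79 in lung. Liver was 128-fold above brain, and brain was 3.2-fold above lung (limma adjusted p = 6.56e-36 and 2.27e-17). As for Ugt2b, the summed level of the hepatocyte markers was higher in this brain sample than in lung, and the part of hepatocyte RNA was not tested. Sult2a2 was at 6.21 ± 0.21 in liver, against 3.24 ± 0.24 in brain and 3.44 ± 0.17 in lung. Sult2a1 lay at the floor everywhere, with means of 2.86 in liver, against 2.66 in brain and 2.53 in lung. Its promoter equals that of Sult2a6 at 292 of 300 positions. The Sult2a6 and Sult2a2 promoters hold GTTAAT and TATAAA, and that of Sult2a1 holds TATAAA but not GTTAAT. Whether these letters bear on the levels was not tested. These genes are close relatives, and which of them each probe set detects was not tested either.

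Sult4a1, an orphan sulfotransferase known from neurons, was the other brain gene among them. It read 5.64, 5.54 and 4.72 in liver, 9.99, 9.91 and 9.94 in brain and 4.84, 4.95 and 4.99 in lung. The brain arrays lay close together and far above all others, while the liver arrays spanned the lung range. Brain was 25.1-fold above liver (liver minus brain -4.65 ± 0.11, log2, SE; limma adjusted p = 2.07e-28) and 32.5-fold above lung. Sult2b1, which sulfates cholesterol and related sterols, had 2 probe sets that disagreed. The brighter one by the mean over all arrays stood for the gene. Its means were 4.73 in liver, against 4.56 in brain and 4.26 in lung, with no call. The other probe set read higher in pure liver, at 5.49, against 3.94 in brain and 3.55 in lung. It was enriched in liver, at 2.92-fold above brain (limma adjusted p = 3.06e-14). Sult5a1 (6.03 in liver, against 6.03 in brain and 6.17 in lung) did not differ beyond the spread of its arrays, and Sult6b2 (3.77, 3.41 and 3.40) differed by less than 2-fold.

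The alpha class of Gst, which includes enzymes that reduce lipid peroxides, had 2 of 4 genes enriched in liver. Gsta1 was at 12.33 ± 0.07 in liver, against 9.71 ± 0.07 in brain and 10.18 ± 0.06 in lung, 4.44-fold above lung. Gsta3 was at 9.61 ± 0.07, 2.98 ± 0.26 and 4.81 ± 0.08, 27.8-fold above lung, and lung was 3.56-fold above brain (limma adjusted p = 1.54e-21). Gsta4, which conjugates the lipid peroxidation product 4-hydroxynonenal, was shared by liver and lung. It read 11.10, 11.16 and 11.06 in liver, 8.00, 7.96 and 7.94 in brain and 10.55, 10.46 and 10.48 in lung. Liver was 8.81-fold above brain but 1.53-fold above lung, under the 2-fold limit. Gsta3l1 was near the floor, with 2.90, 2.95 and 3.05 in liver, 2.63, 2.62 and 2.63 in brain and 3.26, 3.09 and 3.30 in lung, so that no lung array overlapped the others. Liver minus lung was -0.25 ± 0.08 (log2, SE; adjusted p = 0.00306), and it was near 0 (lung minus liver -0.0014) after centring arrays on their medians.

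The mu class, which conjugates epoxides and other electrophiles, was divided: 3 of 7 genes were enriched in liver, 1 in brain and 3 nowhere. Gstm5 read 5.27, 5.40 and 5.09 in liver, 9.55, 9.68 and 9.69 in brain and 7.21, 7.18 and 7.32 in lung. The 3 tissues did not overlap, with lung between the others. Brain was 21-fold above liver (liver minus brain -4.39 ± 0.06, log2, SE; limma adjusted p = 2.35e-35) and 5.3-fold above lung (2.42e-27). Gstm1 was at 11.22 ± 0.05 in liver, against 9.74 ± 0.01 in brain and 9.04 ± 0.02 in lung, and Gstm4 at 8.12 ± 0.09, 7.00 ± 0.05 and 6.84 ± 0.06 (SD, n = 3 each). Gstm4 was 2.17-fold above brain, and that difference fell under the limit, at 0.26 (log2), when arrays were aligned on a curve through the hybridisation controls, bacterial RNAs added to every array. Gstm2 set brain apart: it was at 10.41 ± 0.03 in liver, against 4.60 ± 0.11 in brain and 8.93 ± 0.07 in lung, with lung 20.1-fold above brain (adjusted p = 2.37e-36). Its excess in liver over lung also fell under the limit with that curve, at 0.90 (log2). Gstm7 set lung apart, with 8.83, 8.84 and 8.85 in liver, 9.05, 9.20 and 8.98 in brain and 6.50, 6.41 and 6.54 in lung. Its brain level was 1.18-fold above liver, a difference that vanished (brain minus liver -0.0091) after median centring, and 6.03-fold above lung. Gstm3 (4.55 in liver, against 3.81 in brain and 3.16 in lung) and Gstm6l (4.33, 3.61 and 3.69) were dim.

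All 7 mu genes lie on chromosome 2, and the brain gene Gstm5 and the liver genes Gstm2, Gstm1 and Gstm4 stand at opposite ends of their order. The Gstm5 promoter printed above holds TGACNNNGC at 2 places and TATAAA, and the Gstm1 promoter holds TATAAA without TGACNNNGC.

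The pi class held a pair of neighbours with different tissues. Gstp1, the pi enzyme of lung and brain and a known marker of precancerous change in rat liver, read 8.72, 8.79 and 8.68 in liver, 10.16, 10.32 and 10.21 in brain and 10.92, 10.85 and 10.89 in lung. Each tissue kept its own range. Liver minus lung was -2.15 ± 0.05 and liver minus brain -1.50 ± 0.05 (log2, SE), so lung was 4.45-fold and brain 2.82-fold above liver (limma adjusted p = 4.02e-30 and 1.46e-25). Brain minus lung was -0.66 ± 0.05, a 1.58-fold excess in lung that passed the test (3.77e-15) but not the 2-fold limit. Gstp3 had the reverse order, at 10.61 ± 0.07 in liver, against 4.21 ± 0.32 in brain and 3.77 ± 0.18 in lung, with liver 84.7-fold above brain. Of the promoters printed above, that of Gstp1 holds TGACNNNGC and that of Gstp3 holds none of the motifs searched.

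All 3 theta genes, which act on small halogenated compounds, were enriched in liver. Gstt3 was at 11.24 ± 0.02 in liver, against 8.59 ± 0.01 in brain and 7.92 ± 0.05 in lung, 6.27-fold above brain. Gstt2 was at 9.69 ± 0.01, 6.28 ± 0.11 and 7.43 ± 0.10, and Gstt1 at 9.15 ± 0.02, 5.76 ± 0.12 and 7.49 ± 0.08, 4.76-fold and 3.15-fold above lung. In Gstt1 and Gstt2 lung was above brain, by 3.33-fold and 2.23-fold (limma adjusted p = 1.03e-20 and 3.03e-18). A second Gstt2 probe set gave the same order of tissues with smaller differences, at 6.93 in liver, against 5.26 in brain and 5.69 in lung. Gstt1 over lung fell under the limit, at 0.85 (log2), with the hybridisation control curve.

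Gstk1, the kappa enzyme of mitochondria and peroxisomes, and Gstz1, which is also maleylacetoacetate isomerase of tyrosine breakdown, were enriched in liver. Gstk1 was at 11.51 ± 0.06 in liver, against 7.68 ± 0.16 in brain and 7.59 ± 0.09 in lung, 14.2-fold above brain. Gstz1 was at 11.43 ± 0.04, 7.29 ± 0.03 and 7.69 ± 0.03, 13.4-fold above lung. Gsto1, an omega enzyme that reduces dehydroascorbate, had a graded pattern of 10.26 ± 0.01 in liver, against 9.56 ± 0.01 in brain and 8.42 ± 0.02 in lung. Liver was 1.62-fold above brain, under the limit, and brain 2.22-fold above lung (limma adjusted p = 1.67e-22). Gsto2 was dim, at 5.59 in liver, against 5.31 in brain and 4.93 in lung.

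The 3 microsomal genes each had a pattern of their own. Mgst1, of the endoplasmic reticulum and the outer mitochondrial membrane, was enriched in liver: it was at 13.42 ± 0.03 in liver, against 8.52 ± 0.16 in brain and 11.60 ± 0.03 in lung, 3.53-fold above lung, and lung was 8.49-fold above brain (limma adjusted p = 9.38e-34). Mgst2, which can make leukotriene C4, read 10.09, 10.12 and 10.12 in liver, 4.58, 4.38 and 4.42 in brain and 9.23, 9.18 and 9.25 in lung. Lung was 27.1-fold above brain (5.82e-38), and liver 1.85-fold above lung, a difference that passed the 2-fold limit (1.14, log2) after median centring. Mgst3, a relative with peroxidase activity, was shared by liver and brain, at 10.54 ± 0.02 in liver, against 10.25 ± 0.02 in brain and 8.20 ± 0.0033 in lung, with brain 4.14-fold above lung (3.19e-31).

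Between brain and lung, 8 genes were thus higher in lung: Sult1a1, Gsta3, Gsta4, Gstm2, Gstt1, Gstt2, Mgst1 and Mgst2. The 9 higher in brain were Ugt8, Ugt2b, Sult1d1, Sult2a6, Sult4a1, Gstm5, Gstm7, Gsto1 and Mgst3. Over all members, the 8 of 50 probe sets higher in lung were close to the 15.9% of all probe sets. Of the 9 Ugt genes 0 were called higher in lung, of the 14 Sult genes 1 and of the 20 soluble Gst genes 5. The Ugt count leaves out both Ugt1a probe sets, which name 8 genes each and were higher in lung than in brain (brain minus lung -2.11 and -2.27, log2). The difference between families was not tested. Markers of several other cell types were higher in lung too. The summed linear level of the 4 measured airway markers was 64.3 to 85.6 per array in brain and 18534 to 18942 in lung. That of the 4 white blood cell markers, all enriched in lung, was 484 to 577 in brain and 16415 to 17977 in lung. All 3 alveolar type 1, both measured endothelial and all 4 heart muscle markers were also enriched in lung. The part of these cells in the 8 genes was not tested.

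Genes that supply the conjugating enzymes were described from lists of pathway members. Of all genes, 9.61% were enriched in liver, 11.7% in brain and 11.5% in lung. Both measured genes of UDP-glucuronic acid supply were enriched in liver: Ugdh, which makes this donor, was 5.23-fold and Ugp2 2.29-fold above the next tissue. Of 10 genes of glutathione supply and turnover 7 were enriched in liver, against 2 in brain and 0 in lung. Gclc and Gclm, the subunits of the rate-limiting ligase, were 3.05-fold and 2.56-fold above the next tissue, Gss 3.7-fold and Gsr 2.25-fold, and Cth, which makes cysteine, 75.1-fold. Slc7a11, the cystine importer, was a brain gene (3.79 in liver, against 8.21 in brain and 3.69 in lung), and so was Chac1, which breaks glutathione down (2.57-fold above liver). Cbs and Chac2 were the other liver genes, 7.22-fold and 2.05-fold above the next tissue.

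The genes of sulfate activation were less uniform, with 2 of 7 enriched in liver (against 9.61% of all genes) and 5 nowhere. Papss2, a PAPS synthase, was at 10.30 in liver, against 5.92 in brain and 7.18 in lung, and Slc26a1, a sulfate transporter, was 16.5-fold above brain. The other PAPS synthase gene, Papss1, was lowest in liver, at 6.81 in liver, against 9.45 in brain and 9.81 in lung (limma adjusted p = 2.69e-32 for liver minus brain and 1.09e-33 for liver minus lung).

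Other conjugation followed the liver, with 11 of 14 genes enriched there, 1 in brain, 1 in lung and 1 nowhere. The shares of all genes were 9.61% for liver, 11.7% for brain and 11.5% for lung. The amino acid conjugases Baat and Glyat were 93.2-fold and 61.4-fold above the next tissue, and the methyltransferases Nnmt and Tpmt 12.9-fold and 6.18-fold. The exceptions were Hnmt, which inactivates histamine and was 3.72-fold higher in brain than in liver, and Inmt, an indolamine methyltransferase 11.4-fold higher in lung. Of 7 genes that release or process conjugates, 1 was enriched in each of liver (Sts, steroid sulfatase, 4.92-fold), brain (Ggt7, 12.5-fold) and lung (Dpep1, 15.5-fold). These counts were near the shares of all genes and set the list apart in no tissue. Of 12 known regulators 6 were enriched in liver (against 9.61% of all genes), and 0 in brain and 0 in lung. The 6 were Hnf4a (149-fold), Nr1i2 (12.8-fold), Nr1i3 (9.15-fold), Cebpa (3.17-fold), Rxra (3.09-fold) and Ppara (2.5-fold). Nfe2l2, which encodes Nrf2, was at 10.02 in liver, against 7.59 in brain and 9.79 in lung, and Ahr at 6.87, 3.86 and 6.95.

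In the mixtures, each level was compared with the one that mixing by the labelled shares predicts, the sum of the linear pure tissue levels weighted by share (the share-weighted sum). Averaged over the 11 mixtures, 3 of 50 probe sets lay at least 1.5-fold above it (against 0.325% of all probe sets) and 8 below it (against 4.84%), and 39 did neither. Without the fold limit 11 lay above it (against 10% of all probe sets) and 34 below it (against 74.3%). Of the 50, 29 were below it in each of the 11 mixtures, a count for which the share of all probe sets was not computed. The median departure was -0.15 (log2) over the 50 and -0.22 over all probe sets. The balance moved with the scaling: it was 0 above and 15 below with arrays centred on their medians, 1 and 1 with the hybridisation control curve, and 3 and 13 with each array's 5th percentile subtracted.

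**Figure D3:**
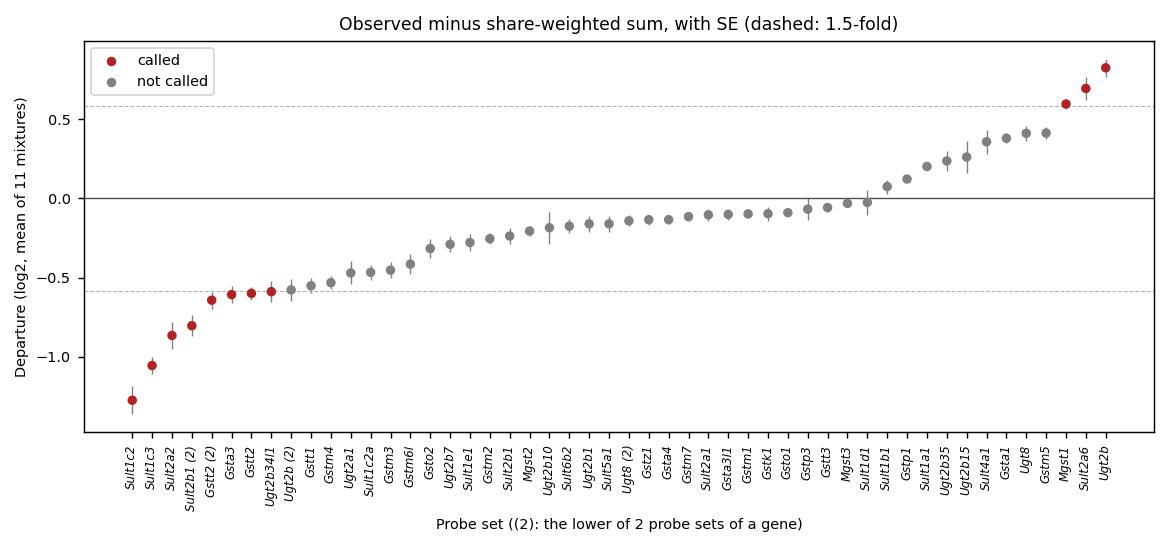
Departure from the share-weighted sum (log2, mean of 11 mixtures, vertical axis) for the 50 probe sets in rising order, with bars of 1 SE and dashed lines at 1.5-fold. Called probe sets are coloured, with Sult1c2 lowest at -1.27 and Ugt2b highest at 0.82.

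The 3 above were Ugt2b (0.82 ± 0.06, log2, SE; limma adjusted p = 9.7e-14), Sult2a6 (0.69 ± 0.07; 2.32e-10) and Mgst1 (0.59 ± 0.03; 2.75e-16). All were enriched in liver, as were 26 of the 46 member genes, and each lay above the sum in 11 of 11 mixtures. Ugt2b departed most with little liver: it read 9.70, 9.90 and 9.88 in 5/25/70, where the sum was 8.12, and 11.72, 11.53 and 11.62 in 25/70/5, where the sum was 10.38. At 70/25/5 it read 12.27, 12.28 and 12.27, against a sum of 11.83. Sult2a6 shared this course, with departures of 1.45 in 5/25/70, 1.08 in 25/70/5 and 0.37 in 70/25/5. The second Ugt2b probe set went the other way, at -0.58 ± 0.07, just within the 1.5-fold limit, so the direction for this gene depends on the probe set.

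The 8 below were all probe sets with their highest level in liver, the highest tissue for 38 of the 46 member genes. Sult1c2 (-1.27 ± 0.09, log2, SE; limma adjusted p = 5.72e-14) and Sult1c3 (-1.05 ± 0.05; 6.59e-17) led, followed by Sult2a2 (-0.86 ± 0.08) and the second probe set of Sult2b1 (-0.80 ± 0.07). Both Gstt2 probe sets (-0.60 ± 0.04 and -0.64 ± 0.05), Gsta3 (-0.61 ± 0.05) and Ugt2b34l1 (-0.59 ± 0.06) completed them, each below the sum in 11 of 11 mixtures. Sult1c2 read 3.58, 3.43 and 3.43 in 25/70/5, where the sum was 5.01, and 5.53, 5.35 and 5.34 in 70/5/25, where the sum was 6.24. The mixture 25/70/5, mostly brain, thus had a mean of 3.48, against 3.07 in pure brain, 3.45 in pure lung and 6.69 in pure liver. Sult1c3 read 3.47, 3.68 and 3.76 in 5/25/70, against a sum of 5.00 and against 3.58 in pure lung.

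Other members tracked the sum closely. Sult1b1 departed by 0.07 ± 0.04 on average and read 7.34, 7.44 and 7.45 in 5/25/70, where the sum was 7.48. Mgst3 departed by -0.03 ± 0.02, with 9.28, 9.18 and 9.23 in 5/25/70 and a sum of 9.19. Gstp1 departed by 0.12 ± 0.02, reading 10.65, 10.67 and 10.73 in 5/25/70 and 9.66, 9.64 and 9.65 in 70/25/5, where the sums were 10.69 and 9.44. The brain genes Ugt8, Gstm5 and Sult4a1 lay above the sum in 11 of 11 mixtures, by means of 0.41, 0.41 and 0.36, within the 1.5-fold limit.

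**Figure D4:**
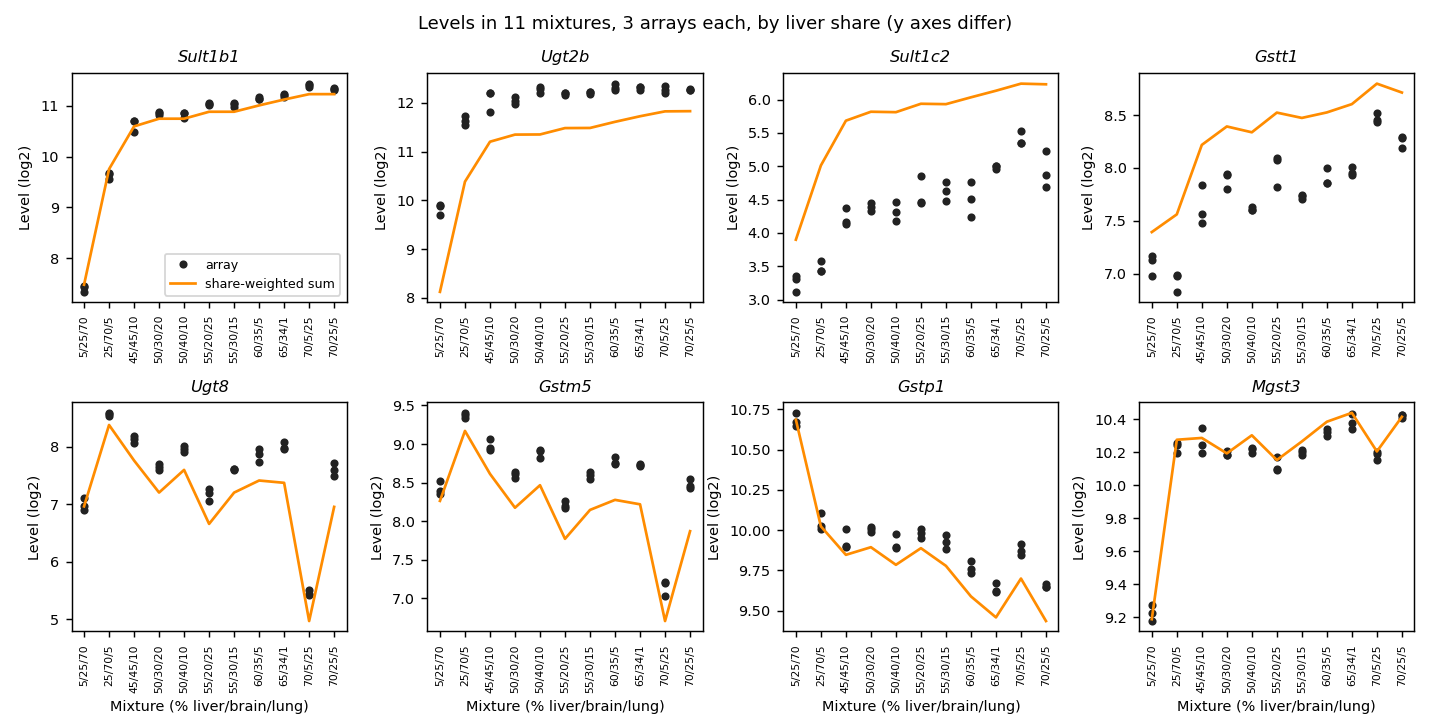
Level (log2, vertical axis, scales differ) of 8 members in the 11 mixtures, ordered by liver share on the horizontal axis, with 3 array points each and the share-weighted sum as a line. Sult1b1 and Mgst3 lie along the line, Ugt2b above it, Sult1c2 and Gstt1 below it, and Ugt8 and Gstm5 dip at 70/5/25, the mixture with 5% brain, as the line does.

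Exchange of tissues was then followed in pairs of mixtures that hold the share of the remaining tissue. With liver in place of brain at 5% lung, 34 of 50 members were higher in 70/25/5 than in 25/70/5 and 7 were lower (limma adjusted p under 0.05, no fold limit), against 22.1% and 30.9% of all probe sets. The sign was that of the share-weighted sum in 40 of the 41 called. The second Ugt2b probe set and Sult1c3 had the widest excess in 70/25/5, at 4.59-fold and 4.19-fold, where the sums predicted 1.46 and 1.41 (log2) and the data gave 2.20 and 2.07. Mgst1, by contrast, read 13.34 in 70/25/5 and 12.75 in 25/70/5, a difference of 0.59 where 1.33 was predicted. The 7 lower were Sult1d1 (-0.99), Ugt8 (-0.97), Gstm5 (-0.90), Sult4a1 (-0.90), Gstp1 (-0.39), the brighter Sult2b1 probe set (-0.27) and Gstm7 (-0.16, all log2). Ugt8 read 7.72, 7.59 and 7.49 in 70/25/5, against 8.54, 8.59 and 8.58 in 25/70/5, without overlap (adjusted p = 2.71e-14).

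With liver in place of lung at 25% brain, 41 members were higher in 70/25/5 than in 5/25/70 and 2 lower, against 30.7% and 30.6% of all probe sets. The 2 lower were Gstp1, at 9.65 in 70/25/5 and 10.68 in 5/25/70 (-1.03 ± 0.05, log2, SE; limma adjusted p = 3.22e-20), and the dim Gsta3l1 (-0.23 ± 0.08; 0.00936). Without replicate 3 of 70/25/5 this count was 1. The widest excess in 70/25/5 was that of the second Ugt2b probe set (22-fold), Ugt2b34l1 (19.9-fold), Sult1c2a (15.7-fold) and Ugt2b10 (15.7-fold). Ugt8 was 1.52-fold higher in 70/25/5 (0.61 ± 0.07; 1.5e-09), although both mixtures hold 25% brain and the sum predicted -0.01. It was the single called member of 43 whose sign was not that of the sum, which was near 0. The other brain genes also lay above their predicted differences. Sult4a1 was called at 0.39 where 0.03 was predicted. Gstm5 (0.05, predicted -0.39) and Sult1d1 (0.33, predicted 0.11) were not called.

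With brain in place of lung at 70% liver, 6 members were higher in 70/25/5 than in 70/5/25 and 13 lower, against 21.4% and 25.4% of all probe sets. The 6 higher were the 4 brain genes, Ugt8 (4.42-fold), Sult4a1 (3.77-fold), Gstm5 (2.51-fold) and Sult1d1 (1.88-fold), with Gstm7 (1.39-fold) and Mgst3 (1.18-fold), which are shared by liver and brain. Sult4a1 read 8.70, 8.64 and 8.66 in 70/25/5, against 6.70, 6.87 and 6.69 in 70/5/25, without overlap (limma adjusted p = 2.97e-16). The 13 lower differed by little, from -0.48 (log2) in Sult1c2 to -0.12 in Gstz1, and included genes shared with lung such as Gsta4 (-0.29 ± 0.04; 8.62e-07), Mgst2 (-0.25 ± 0.05; 0.000255), Gstm2 (-0.24 ± 0.06; 0.000492) and Gstp1 (-0.23 ± 0.05; 8.45e-05). This count was 7 without replicate 3 of 70/5/25. The split of 6 higher and 13 lower was 6 and 17 with arrays centred on their medians, 7 and 7 with their 5th percentile subtracted, and 4 and 0 with the hybridisation control curve. The sign was that of the sum in 18 of the 19 called, Sult2a1 at the floor being the other. For several of them the predicted difference was near 0, so that its sign says little. Sult1c2 was at -0.48 where -0.01 was predicted, and Sult1c3 at -0.22 where -0.003 was predicted. Of the 19 called, 1 differed by less than predicted, against 13 of 41 with liver for brain and 23 of 43 with liver for lung. With predictions near 0, a difference wide enough to be called mostly exceeds its prediction, so this count says little. The share over all probe sets was not computed.

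**Figure D5:**
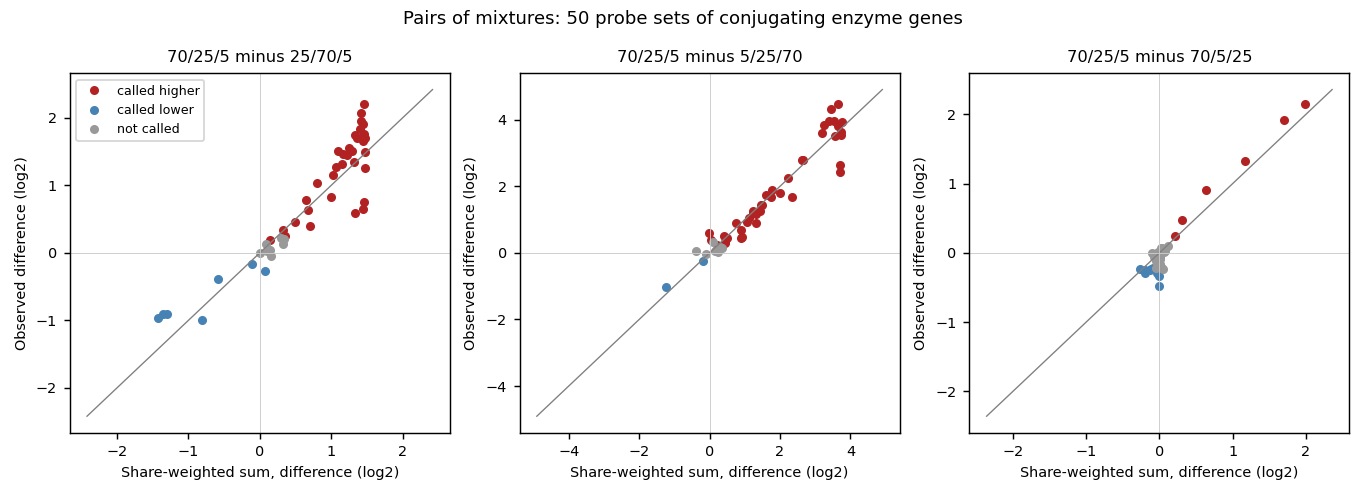
Observed difference (log2, vertical axis) against the difference of the share-weighted sums (log2, horizontal axis) for the 50 probe sets in the 3 pairs of mixtures, with the line of equal values and points marked by call. In 70/25/5 minus 5/25/70 the points run up to 4.46 for the second Ugt2b probe set, and in 70/25/5 minus 70/5/25 most lie near 0 with the 4 brain genes to the upper right.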

How the data were processed

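Total RNA of liver, brain and lung was labelled, and the cRNA was hybridised pure or mixed; groups come from the labels. The values deposited by the authors are log2 levels, 1 per probe set and array, made with RMA per the submitters' processing notes, in a version not given in the sources used here. The method makes the distributions of arrays alike, which can scale tissues unevenly. Of 31099 probe sets 57 controls were left out, and array medians lay between 5.48 and 5.83. The number of arrays limits the precision.

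The platform annotation gave 1 gene for 20826 probe sets and several for 436, and did not list 9780. Entrez identifiers in the GRCr8 gene table changed 0 member symbols, and 1 member gene (Sult1e1) was matched by symbol. The probe set with the highest mean over all arrays stood for a gene. No member probe set ended in _s_at or _x_at.

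A single limma model (limma 3.58.1 under R 4.3.3) was fitted to all 42 arrays with 1 mean for each group (28 residual degrees of freedom, 4.56 prior), with Benjamini-Hochberg adjustment over 31042 probe sets. Tissues were called at adjusted p under 0.05 and 2-fold, departures at 1.5-fold with errors by the delta method, and pairs of mixtures with no fold limit. The steps were tested on simulated data. Any member could be named, with values per array for the 4 genes of widest gap in each tissue and for those enriched in brain. The members, gene lists, tests and alternatives were chosen with earlier results of these data known. At most 28 values were equal in a pair of replicate arrays, so each array counted as 1 replicate. Figures used matplotlib 3.10.9.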

Additional observations from a re-analysis of the deposited data

How the results depend on the processing

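Most counts and differences kept their direction and stayed within 1.5 times or on the same side of the limit under the alternatives run. Relative to the deposited scale, the median of liver minus brain over all probe sets moved to 0.42 (log2) after median centring and to -0.65 with the hybridisation control curve, while that of liver minus lung moved to 0.37 and -0.78. After median centring, 0 members lay above and 15 below linear mixing, 1 was lower in 70/25/5 than in 5/25/70, Gsta3l1 (lung minus liver) stood at -0.0014 and Gstm7 (brain minus liver) at -0.0091. With the curve, 5 members were lower in liver than in lung, 1 lay above and 1 below linear mixing, and 0 were lower in 70/25/5 than in 70/5/25. Dim genes changed sign under it: liver minus lung was -0.28 for Ugt2b7, -0.41 for Sult1e1 and -0.27 for Gstm6l, and liver minus brain was -0.65 for Sult2a1, -0.69 for Sult2b1, -0.50 for Sult6b2, -0.12 for Gstm3 and -0.58 for Gsto2. Gstm2 and Gstt1 (liver minus lung, 0.90 and 0.85) and Gstm4 (liver minus brain, 0.26) fell under 2-fold with it. With the 5th percentile subtracted, liver minus lung passed 2-fold for Ugt2b7 (1.13), Sult1e1 (1.36) and Gstm6l (1.08) and liver minus brain for Gstm3 (1.18), 14 were higher in brain than in lung, 13 lay below linear mixing, 1 was lower in 70/25/5 than in 5/25/70 and 7 than in 70/5/25. With probe sets over the median alone, 1 was lower in 70/25/5 than in 5/25/70. Without the fold limit 2 genes were enriched in lung, 4 probe sets were lower in liver than in lung, 22 were higher in brain than in lung and 16 lower. A 2-fold limit left 0 departures above and 2 below, and a 1.5-fold limit on the pairs left 4, 1 and 0 lower members. A share-weighted mean of log2 values, which cannot exceed the sum, gave 22 above and 1 below. Causes other than these arithmetic ones were not tested.

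Leaving out each array in turn kept the tissue counts at 26, 4 and 0 enriched genes, 31 and 5 between liver and brain, 33 and 2 between liver and lung, and 9 and 8 between brain and lung. Departures ranged from 2 to 3 above and 7 to 8 below. In the pairs the higher and lower counts ranged from 33 to 36 and 6 to 7 for 70/25/5 minus 25/70/5, from 39 to 42 and 1 to 2 for 70/25/5 minus 5/25/70, and from 6 to 7 and 7 to 14 for 70/25/5 minus 70/5/25. No paired analysis was possible because the labels give the arrays no replicate numbers. The RNA of 1 animal limits all results to the spread between arrays, and levels near the dap controls limit what dim members can show.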

Other observations

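Other probe sets of the same families have several gene names in the platform annotation and so were not among the 50. Both Ugt1a probe sets, which name 8 Ugt1a genes each, were enriched in liver, with lung in between. The first was at 11.13 ± 0.02 in liver, against 5.92 ± 0.15 in brain and 8.03 ± 0.08 in lung (log2, SD, n = 3), and the second at 10.40 ± 0.01, 4.54 ± 0.31 and 6.81 ± 0.07. Lung was thus above brain (brain minus lung -2.11 and -2.27, limma adjusted p = 2.24e-27 and 2.96e-23), an order that no Ugt2 gene had among its calls. The Gsta5 and Gsta2 probe set was at 11.65 ± 0.02 in liver, against 5.00 ± 0.42 in brain and 4.75 ± 0.20 in lung. A further Sult1c2 probe set, shared with an unnamed locus, was at 7.06 ± 0.06 in liver, against 3.67 ± 0.22 in brain and 3.95 ± 0.11 in lung, and lay below linear mixing by a mean of -1.34 (log2, adjusted p = 1.52e-14), close to the -1.27 of the single-gene Sult1c2 probe set.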
